A study of Homo sapiens with 4 samples.

Results

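IRF1 and its neighbourhood on chromosome 5q31 were examined in H3K27ac HiChIP loop lists of M14, a line of human melanoma cells. An shRNA against STAG2, a subunit of cohesin, could be switched on in these cells with doxycycline. HiChIP ligates pieces of chromatin that lie close together and enriches them with an antibody, here one against acetylated lysine 27 of histone H3, a mark of active promoters and enhancers. Both groups carried the shRNA. Cells kept 5 days without doxycycline were the WT group, and cells kept 5 days with it were the STAG2-KD group. The labels gave 4 samples, 2 per group, and 1 loop list per group was analysed. Each list gave the positions of loops and no reads, so the depth behind a loop was unknown, no difference had a replicate check and the loss of STAG2 itself could not be checked. A loop missing from a list can be a contact just short of the caller's limit.

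An IRF1 loop was defined as a loop with a 5 kb anchor bin that held any of the 50 IRF1 transcript starts annotated by GENCODE on hg19. By this rule 16 of the 42529 loops found in either list were IRF1 loops, 7 in WT and 13 in STAG2-KD. The locus was chosen on these loop counts, so they are a description and no test was made on them. A further 40 loops had both anchors between 131000001 and 132600000 of chromosome 5 without touching an IRF1 start, and these served as the neighbourhood.

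IRF1 encodes interferon regulatory factor 1, a transcription factor that is switched on quickly by interferon gamma. Interferon gamma acts through its receptor and the kinases JAK1 and JAK2, genes that respond to it often carry GAS elements in their DNA, and IRF1 then activates genes of antigen presentation and antiviral defence. Close to IRF1 lie metabolic and structural genes such as SLC22A5 and PDLIM4 towards lower coordinates, and the cytokine genes IL5, IL13 and IL4 towards higher ones. Cohesin, the complex that STAG2 belongs to, holds chromatin loops together.

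The lists placed the IRF1 contacts beside the gene's usual promoter and not on it. IRF1 (ENSG00000125347) runs on the minus strand of chromosome 5 from 131776132 to 131844411, a span that takes in long alternative transcripts. The main start, which RefSeq also uses, is at 131826465. The bin with this start, 131825001 to 131830000, held 20 of the 50 starts and no loop in either list. The next bin towards the gene's end, 131820001 to 131825000, held 26 starts and no loop either. All 7 WT loops and 12 of the 13 STAG2-KD loops were anchored in the bin from 131830001 to 131835000, called the hub bin here. It begins 3536 bases upstream of the main start and holds a single IRF1 start, that of a protein-coding transcript at 131832159. An exon of IRF1 lies in it, and it is crossed by the annotated gene ENSG00000283782. The remaining anchor lay at an internal start of a noncoding IRF1 transcript, in the bin from 131805001 to 131810000, with 0 WT loops and 2 STAG2-KD loops, of which 1 joined it to the hub bin. An empty bin at the place with most starts, for IRF1 the bin with 26, was not rare among genes with loops. Of the 2089 protein-coding genes with 5 or more loops in either list, 15.7% had no loop in the bin with most of their starts.

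**Figure D1:**
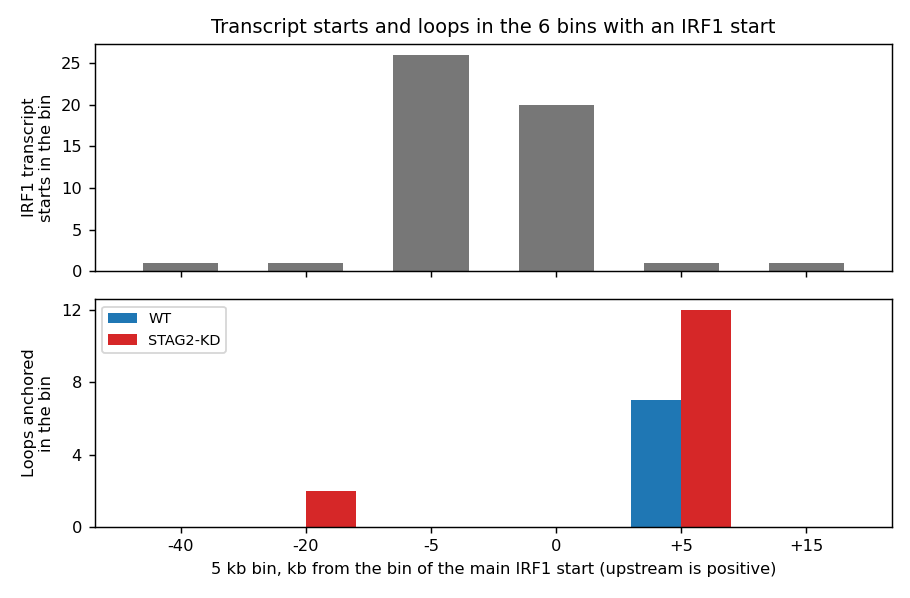
IRF1 transcript starts (upper bars) and anchored loops in the WT and STAG2-KD lists (lower bars) in each of the 6 bins of 5 kb that hold an IRF1 start; the horizontal axis gives the distance of the bin in kb from the bin of the main start. The bins with 26 and 20 starts carried no loop, and the bin 5 kb upstream, with 1 start, carried 7 WT and 12 STAG2-KD loops.

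The sequences of both places are shown because the loops and the known promoter fall into different bins. The IRF1 promoter, 250 bases before the RefSeq start, was placed on the minus strand at chr5:131826466-131826715 of hg19 by exact match. It is printed 5′ to 3′ with the letters TTCNNNGAA, the pattern of a GAS element, in capitals.
IRF1 promoter: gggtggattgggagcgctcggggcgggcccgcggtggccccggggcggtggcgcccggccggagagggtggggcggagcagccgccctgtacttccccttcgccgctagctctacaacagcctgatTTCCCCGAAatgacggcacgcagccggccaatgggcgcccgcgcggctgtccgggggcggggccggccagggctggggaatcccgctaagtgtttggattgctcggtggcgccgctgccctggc
The match lies 116 bases before the start. TTCNNNGAA reads the same on both strands, and 7.66% of 35116 RefSeq promoters of 300 bases held it.

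The hub bin held 5 matches to these letters, and 5 or more were found in 5.15% of 35534 bins of 5 kb on chromosome 5. They are printed on the minus strand, 5′ to 3′, with the match in capitals and 10 bases on each side. They lie between 4616 and 6768 bases upstream of the main start. The stretch from GAS 1 to GAS 5 runs from 131831063 to 131833243.
GAS 1, chr5:131833215-131833243: ccaagtcatgTTCGGGGAAatcctccaac
GAS 2, chr5:131832752-131832780: cgtggttcggTTCCCGGAAactcctcgat
GAS 3, chr5:131832297-131832325: tgcagaggtgTTCGCGGAAagctctgcac
GAS 4, chr5:131831975-131832003: ggccctccctTTCCAGGAAgccggccagc
GAS 5, chr5:131831063-131831091: cctcccaggtTTCTGTGAAaatcgagatg
Another IRF1 start bin, from 131785001 to 131790000, also held 5 matches and carried no loop in either list. The bin of the main start held 2 matches, and the 14 partner bins without an IRF1 start held 0 to 4. These matches are letters in the reference and not measured binding sites. The enzyme MboI, which cut the chromatin, has 14 sites in the hub bin, 10 in the bin of the main start and 17 in the bin with 26 starts, against a median of 12 over the bins of chromosome 5. The GC share was 57.1%, 54.1% and 52.7% in these bins, against a median of 38.7%.

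The first comparison asked how many IRF1 contacts each list held and how many they had in common. Both lists held 4 of the 16 IRF1 loops, a further 3 appeared in WT alone (WT-only) and 9 in STAG2-KD alone (STAG2-KD-only). Over both lists in full, the shared loops made up 24.4%, the WT-only loops 39.8% and the STAG2-KD-only loops 35.8%. The shared part of the IRF1 loops, 25.0% (95% exact binomial interval 7.27 to 52.4), lay close to that background. The STAG2-KD-only part of the private IRF1 loops was 75.0% (42.8 to 94.5), against 55.2% (35.7 to 73.6) for the other loops of the neighbourhood and 41.8% (39.4 to 44.3) on chromosome 5 outside it. Over both lists in full this part was 47.4% (46.9 to 48.0), a value inside the IRF1 interval. These intervals cover the counting of loops alone, and loops at 1 anchor are not independent.

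As a gene, IRF1 had 1.86 times as many loops in STAG2-KD as in WT. At least 1.5-fold more loops in STAG2-KD were found for 22.3% of the 2089 genes with 5 or more loops, and at least 1.5-fold more in WT for 27.5%. With 7 loops in WT the hub bin was matched or exceeded by 5.77% of WT anchors, and with 12 loops in STAG2-KD by 0.924% of STAG2-KD anchors. The hub bin was itself picked as the IRF1 bin with the most loops, at a locus chosen on its counts. These ranks are therefore a description.

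**Figure D2:**
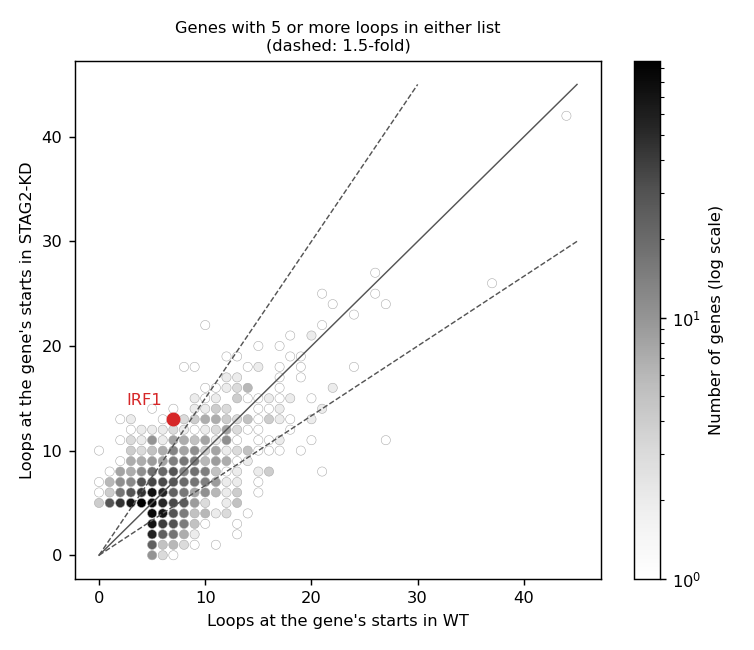
Loops at the transcript starts of each protein-coding gene in WT (horizontal axis) and STAG2-KD (vertical axis), for the 2089 genes with 5 or more loops in either list; the grey shade gives the number of genes on a log scale, the solid line equality and the dashed lines 1.5-fold. IRF1, in red at 7 and 13 loops, lies above the upper dashed line, as 22.3% of the genes lie on or above it.

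The shared contacts lay on the lower-coordinate side of the hub bin, towards the antisense gene IRF1-AS1, apart from a single distant contact. The hub bin met the bin from 131790001 to 131795000 at 40 kb in both lists, a place with no transcript start and with an exon of IRF1-AS1, a long noncoding RNA read from the opposite strand. It met the bin from 131760001 to 131765000 at 70 kb, where the noncoding RNA LINC02863 starts. It met the bin from 131745001 to 131750000 at 85 kb, where IRF1-AS1 itself starts. The distant shared contact ran 390 kb the other way, to the bin from 132220001 to 132225000 within the body of AFF4, where no transcript starts.

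Contacts found in a single list on the lower-coordinate side reached PDLIM4 and SLC22A5 in WT, and P4HA2 and MIR3936HG in STAG2-KD. In WT alone, the hub bin met the start of PDLIM4, an actin-associated PDZ and LIM domain protein, at 235 kb, in the bin from 131595001 to 131600000. In STAG2-KD alone, it met the start of P4HA2, a collagen prolyl hydroxylase subunit, at 270 kb, in the bin from 131560001 to 131565000. P4HA2 and PDLIM4 are neighbouring genes, and these partner bins are 7 bins apart. In WT alone, the hub bin met a start of SLC22A5, which encodes a carnitine transporter, at 110 kb, in the bin from 131720001 to 131725000. The nearest STAG2-KD-only contact was the microRNA host gene MIR3936HG at 130 kb, in the bin from 131700001 to 131705000, which is 4 bins away. No WT-only IRF1 loop had an IRF1 loop of the other list within 2 bins, so a tolerance of 1 or 2 bins left the number of shared loops at 4.

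The shortest private contacts belonged to STAG2-KD. The hub bin met the bin from 131775001 to 131780000, with no start but an exon of IRF1, at 55 kb. It met the bin of the internal IRF1 start at 25 kb. The same internal bin met the LINC02863 bin at 45 kb, the single IRF1 loop that did not involve the hub bin. None of these 3 was in the WT list. The shortest loop in either list was 20 kb, so contacts between the hub bin and the bin of the main start next to it could not be seen.

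On the higher-coordinate side, WT had 2 IRF1 loops and STAG2-KD had 5, of which 1 was shared. In WT alone, the hub bin met the bin from 132200001 to 132205000 at 370 kb, where transcripts begin of UQCRQ, a subunit of mitochondrial complex III, and GDF9, a growth factor of the oocyte. The nearest STAG2-KD contact was the shared bin 4 bins further on. In STAG2-KD alone, the hub bin met the start of SHROOM1, of the Shroom family of actin-linked proteins, at 325 kb, and a bin with no gene at 340 kb. It also met the start of AFF4, a scaffold of the super elongation complex, at 465 kb, in the bin from 132295001 to 132300000. The longest IRF1 loop, at 555 kb, ran to the start of HSPA4, a chaperone of the heat shock protein family, in the bin from 132385001 to 132390000. It was the only IRF1 loop of 500 kb or more.

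**Figure D3:**
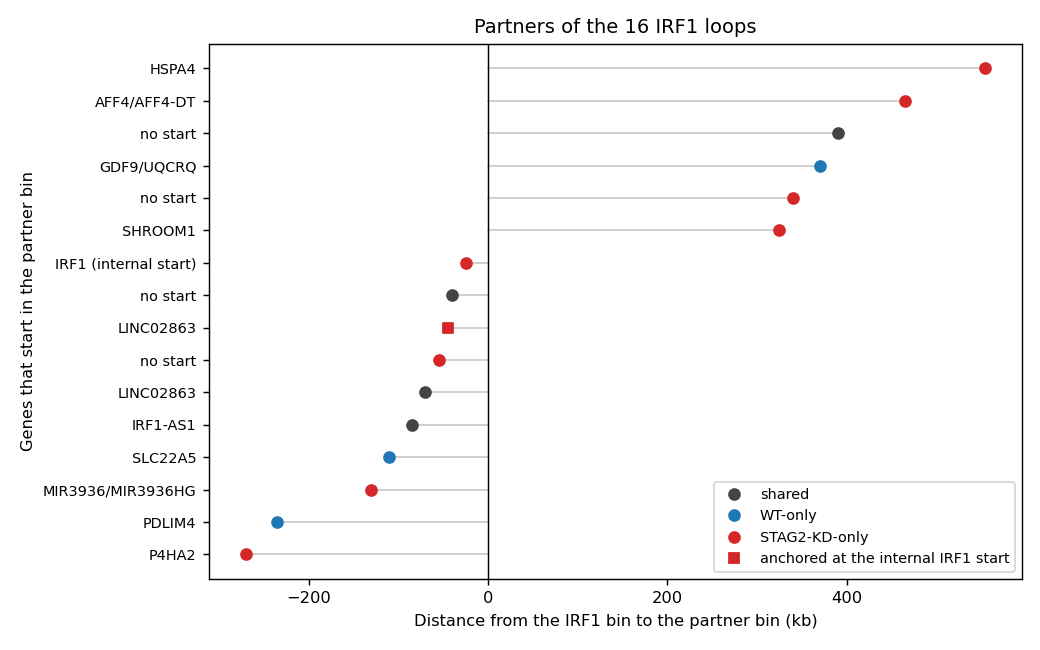
The 16 IRF1 loops, each as a point at the signed distance in kb from its IRF1 bin to its partner bin, coloured by list. The vertical axis names the genes that start in the partner bin. The square marks the loop from the internal IRF1 start to the LINC02863 bin. The loop of the hub bin to the internal start is drawn as a circle. The 4 shared partners lie at 40, 70, 85 and 390 kb, and the points at 465 and 555 kb are STAG2-KD-only.

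Distances of all IRF1 loops ran from 40 to 390 kb in WT, with a median of 110 kb, and from 25 to 555 kb in STAG2-KD, with a median of 130 kb. The sides were set apart after the loops had been seen. Towards lower coordinates the median was 85 kb over 5 WT loops and 62.5 kb over 8 STAG2-KD loops. Towards higher coordinates it was 380 kb over 2 WT loops and 390 kb over 5 STAG2-KD loops. For the hub bin alone the STAG2-KD median was 200 kb.

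Some partner bins of private IRF1 loops carried other loops in the opposite list. All 3 partners of WT-only IRF1 loops were anchors in STAG2-KD, and 5 of the 9 partners of STAG2-KD-only IRF1 loops were anchors in WT. The other 4 STAG2-KD-only loops ended at the MIR3936HG bin, the bin at 55 kb, the bin of the internal IRF1 start and the SHROOM1 bin, which had 0 loops in WT. How often this holds for the partners of private loops in general was not counted, so neither number can be read as particular to IRF1.

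Partners of the hub bin also met each other. Among the 15 bins that were partners of the hub bin in either list, 8 loops were found in WT and 15 in STAG2-KD, the loop from the internal IRF1 start included, with 7 in both lists, 1 WT-only and 8 STAG2-KD-only. Among the 12 partners of the STAG2-KD list, the numbers were 5 and 7, with 4 shared, and among the 7 partners in the WT list they were 2 and 5, with 2 shared. The 15, 12 and 7 bins gave 100, 61 and 20 pairs at least 20 kb apart. The 15 bins were picked from these same lists, 3 through a WT-only loop of the hub bin and 8 through a STAG2-KD-only loop. That choice can by itself raise the STAG2-KD number, so the counts are a description. The PDLIM4 and LINC02863 bins each had 2 loops in WT and 7 in STAG2-KD. The PDLIM4 bin had no loop to the hub bin in STAG2-KD and had 6 STAG2-KD-only loops. These ran to the LINC02863 bin at 165 kb, to the bin of the IRF1-AS1 exon at 195 kb, to the AFF4 start at 700 kb, to the HSPA4 start at 790 kb and to bins without a start at 30 and 160 kb. The LINC02863 bin had 5 STAG2-KD-only loops, among them a loop to HSPA4 at 625 kb and the loop to PDLIM4. The HSPA4 bin had 8 loops in each list, of which 2 were shared.

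**Figure D4:**
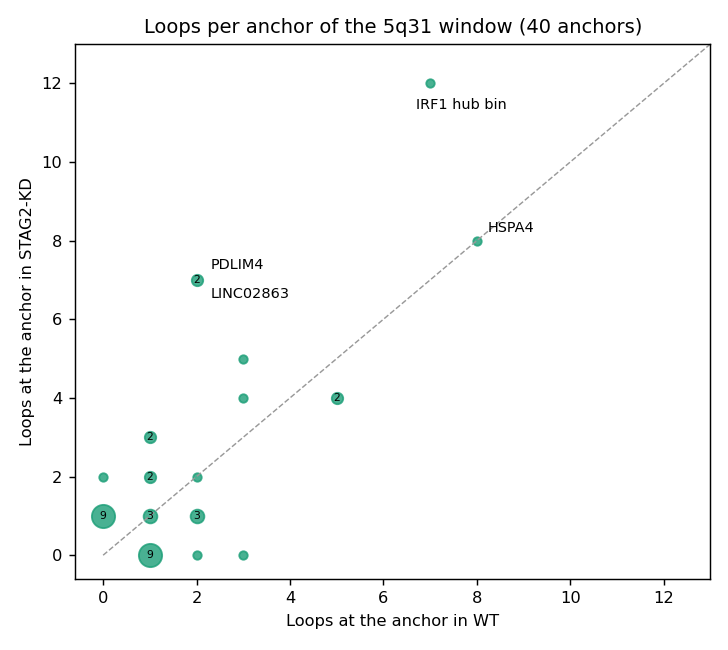
Loops at each of the 40 anchors of the window in WT (horizontal axis) and STAG2-KD (vertical axis), loops that leave the window included; larger points with a number stand for several anchors and the dashed line marks equality. The IRF1 hub bin at 7 and 12 loops and the PDLIM4 and LINC02863 bins at 2 and 7 lie above the line, and the HSPA4 bin lies on it.

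The neighbourhood held 24 WT loops and 27 STAG2-KD loops, with 11 shared. With the IRF1 loops added, the window held 31 and 40, with 15 shared, while chromosome 5 outside it held 1440 and 1177. The window fell into a lower and a higher part, divided after the loops had been seen by a stretch of 195 kb, between 131875000 and 132070001, in which no loop of the window had an anchor. That stretch holds starts of the cytokine genes IL5, IL13 and IL4, of the DNA repair gene RAD50 and of the kinesin gene KIF3A. Within the lower part, which includes IRF1, WT had 12 loops and STAG2-KD 23. Loops across the empty stretch numbered 4 in WT and 9 in STAG2-KD. Within the higher part, around UQCRQ, AFF4 and HSPA4, the order was the other way round, with 15 loops in WT and 8 in STAG2-KD.

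Without the IRF1 loops, the lower part had 7 WT and 15 STAG2-KD loops, and 2 WT and 4 STAG2-KD loops crossed the stretch. All 4 loops of 500 kb or more in the window were STAG2-KD-only, and 3 of them passed over the IRF1 starts without an anchor there, where the WT list had 0 such loops. Over the complete lists, 3.73% of WT and 4.63% of STAG2-KD loops reached 500 kb.

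**Figure D5:**
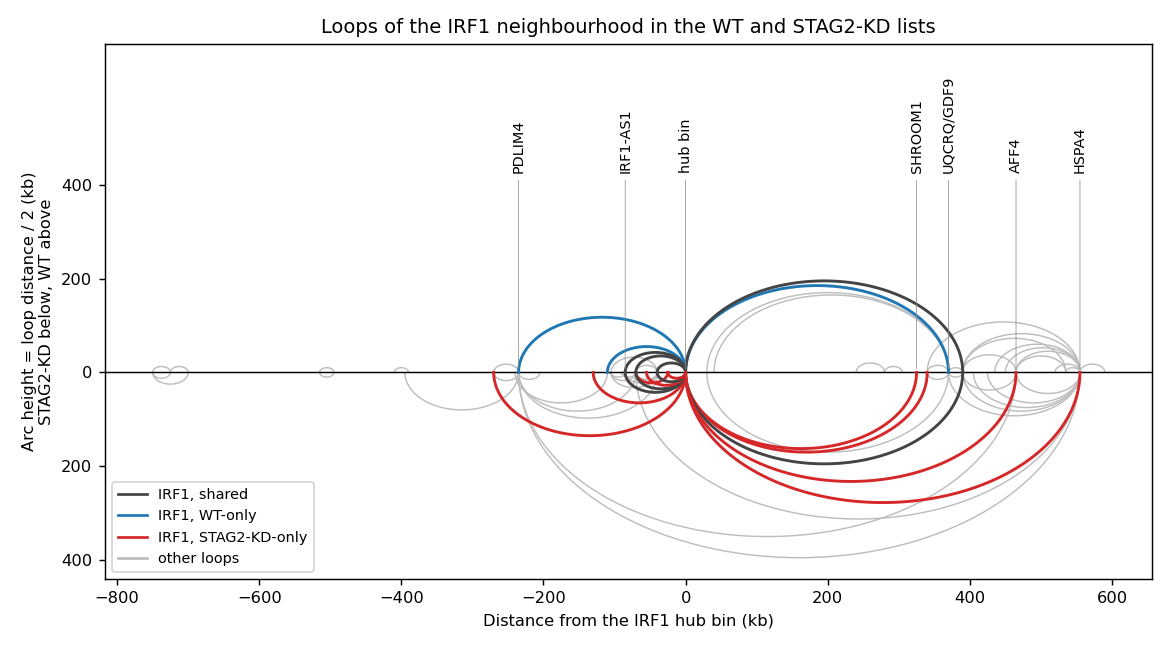
Loops with both anchors in the window, drawn as arcs above the line for WT and below it for STAG2-KD; the horizontal axis is the distance in kb from the hub bin, arc height is the loop distance divided by 2, coloured arcs are IRF1 loops and grey arcs are the others. STAG2-KD arcs from the hub bin reach AFF4 at 465 kb and HSPA4 at 555 kb, and the grey arcs of 625, 700 and 790 kb are found below the line.

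Genes of the neighbourhood were then counted from a list of 24. In either list, 12 of them had no loop at a start, among them IL3, CSF2, IL5, IL13, IL4 and RAD50, against 10660 of all 19222 protein-coding genes of the autosomes. Loops were more numerous in STAG2-KD for 6 genes and in WT for 4. These counts include IRF1 loops, on which the locus was chosen. P4HA2, SHROOM1 and AFF4 were higher in STAG2-KD, and GDF9 and UQCRQ in WT, only through an IRF1 loop. HSPA4 was level only with its STAG2-KD-only IRF1 loop counted. Of the 5 genes with 5 or more loops, PDLIM4, with 2 in WT and 8 in STAG2-KD over its 3 start bins, was past 1.5-fold. GDF9 and UQCRQ, both among these 5, start in the same bin and were counted with the same loops. KIF3A had 1 loop in WT and SEPTIN8, which encodes a septin of the cytoskeleton, had 2, and both had 0 in STAG2-KD. The KIF3A loop ran to SEPTIN8 and was counted for both. IRF1 loops ended at starts of 9 of the listed genes: P4HA2, PDLIM4, SLC22A5, IRF1-AS1, SHROOM1, GDF9, UQCRQ, AFF4 and HSPA4.

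Among 24 other genes of the interferon pathway, 17 had a loop in each list and 5 had none in either. Of all 19222 protein-coding genes of the autosomes, 7508 had a loop in WT, 7078 in STAG2-KD and 10660 in neither. Loops were more numerous in STAG2-KD for 11 and in WT for 5, against 2948 and 3722 of all these genes. The median was 2 loops in both lists, against 0 over all genes. Of the receptor genes, IFNGR1 had 0 loops in both lists and IFNGR2 had 2 in WT and 3 in STAG2-KD. JAK1 had 1 and 2, JAK2 had 0 in both, and STAT2, a transcription factor of type I interferon signalling, had 7 and 8. Of 5 genes with 5 or more loops, 2 were past 1.5-fold in each direction. TAP1 and PSMB9, neighbouring genes of peptide transport and the immunoproteasome, had 2 and 3 loops in WT and 5 and 9 in STAG2-KD. Any loop that these neighbours share was counted for both, so they need not be separate cases. TYK2, a kinase of the type I interferon receptor, had 5 and 2, and IRF2, a family member that competes with IRF1, had 11 and 7.

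Marker genes were checked for the labelled cell type. Of 8 melanocyte lineage genes, 7 had a loop in WT and 6 in STAG2-KD, against 7508 and 7078 of all 19222 genes, and TYR, which encodes tyrosinase, had 0 in both. Loops were fewer in STAG2-KD for 4 of the 8 and more numerous for 2, with 2 past 1.5-fold downwards and 1 upwards among the 4 with 5 or more loops. MITF, the lineage's main transcription factor, had 7 loops in WT and 2 in STAG2-KD, and the pigment gene PMEL had 7 and 4. DCT, another pigment gene, had 3 and 0, and the melanocyte antigen gene MLANA had 3 and 5. Of the T cell, keratinocyte and fibroblast markers, 1 of 4, 1 of 3 and 1 of 3 had a loop in each list. Loop lists do not measure expression, and the part of cell type in these results was not tested.

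Genes outside the window were ranked by how near their loop counts came to those of IRF1, as the Euclidean distance over the WT, STAG2-KD and shared counts. This likeness rests on 2 lists. MACF1 had the same counts of 7, 13 and 4, but summed over 26 start bins. IRF1 had 6 start bins, with 12 of its 13 STAG2-KD loops at the hub bin. Like counts therefore do not mean that the loops were spread alike. ABHD12 with 7, 12 and 4 and DOCK10 with 8, 13 and 4 were at a distance of 1, followed by DDR1 with 8, 13 and 5 and GCNT2 with 6, 13 and 3. In all, 14 genes lay within a distance of 2.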

How the data were processed

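Per the study's methods, the authors mapped the HiChIP reads with HiC-Pro (build hg19), found H3K27ac peaks by hichip-peaks and then used FitHiChIP for the loops. Versions were not given in the sources used here, nor whether a list merges replicates. The lists the authors deposited give, for each loop, a chromosome and its outermost positions on both sides, with no count or score. Anchors were read as 5 kb bins, positions were converted to count from 1, and 1 list per group was taken through its sample's title. Transcript starts came from GENCODE release 44 lifted to GRCh37, the assembly behind hg19. A loop was shared when both of its bins matched between lists. Distance was measured between anchor midpoints. Shares carry exact Clopper-Pearson intervals at 95%, for counting error only. No p-value was computed, since no group had a replicate list. On another chromosome, 1 STAG2-KD loop lies off the 5 kb grid and was counted at no transcript start.

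Motif letters were searched in the GRCh37 sequence, and promoters came from the RefSeq table built on GRCh38.p14. The counting functions were tested on simulated data with planted loops. The members and gene lists were chosen with earlier results of these data known. Named genes are those that start in partner bins, the listed genes of 5q31 and the interferon pathway, the 3 busiest anchors of the window and the 5 genes nearest to IRF1 in loop counts. One listed gene is not reported here by itself. LINC02863 stood level with PDLIM4 in that order. Alternatives were other definitions of the IRF1 start, tolerances of 1 and 2 bins, limits on distance, the earlier 50% of lines, a WT count scaled to the STAG2-KD list, and other windows. Computation used Python 3.11.15, scipy 1.17.1 and matplotlib 3.10.9.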

Additional observations from a re-analysis of the deposited data

How the results depend on the processing

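No paired analysis was possible because there was a single list for WT and for STAG2-KD, which also left no replicate to leave out. Of 72 values under alternatives, over 11 results, 51 stayed within 1.5 times the reported count or distance, or inside the interval of the reported share. Some of these could not move. The limit of 1 Mb removed no loop of the window, whose longest loop was 790 kb. The interval of the IRF1 share, 42.8 to 94.5, was wide, so staying inside it says little. The definition of the IRF1 start moved the counts most. With only the bin holding the most IRF1 starts, WT, STAG2-KD and shared loops all numbered 0. Without the hub bin, a choice made after the lists were seen, WT had 0, STAG2-KD had 2 with a median of 35.0 kb, 0 were shared and 100% of private loops were STAG2-KD-only. With starts of protein-coding transcripts, or with the hub bin alone (also added after the lists were seen), the STAG2-KD median was 200 kb. This was because the loop from the internal start to the LINC02863 bin was left out. Loops of 50 kb or more gave a WT median of 172 kb and a STAG2-KD median of 298 kb, and 17 WT, 26 STAG2-KD and 8 shared loops in the window, because shorter loops were removed. Among the earlier 50% of chromosome 5 lines, WT kept 5 of its 7 IRF1 loops and STAG2-KD 6 of its 13. A smaller part of the STAG2-KD IRF1 loops than of the WT ones was kept, so the counts of the lists came close. The STAG2-KD loop to MIR3936HG, 50.6% down its list, fell just past this cut. The window then held 15 WT, 18 STAG2-KD and 7 shared loops, because fewer lines were used. Within 500 kb of IRF1 the window held 18 WT loops, because it was smaller. With 10 or more loops required, 82 genes had at least 1.5-fold more loops in STAG2-KD, because fewer genes qualified. WT had fewer IRF1 loops than STAG2-KD under each alternative but the bin with most starts, where both had 0.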

Other observations

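The order of lines in the lists, whose meaning was not stated, placed the IRF1 loops differently. The 3 shared core loops stood 12.4% to 25.2% down the chromosome 5 lines of the WT list and 1.23% to 1.40% down those of the STAG2-KD list. The STAG2-KD-only loops at 25 and 55 kb followed them, at 1.56% and 1.48%. The shared loop of 390 kb stood 98.3% down in WT and 97.9% down in STAG2-KD. The STAG2-KD-only loops to AFF4 and HSPA4 stood 74.9% and 65.9% down.

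Loops in a bin next to an empty one were also counted for all genes, starting from the bin with most of a gene's starts. The hub bin of IRF1 is not next to its bin with most starts, from 131820001 to 131825000, but next to the bin of its main start. IRF1 is thus not an example of what was counted. Of 19222 protein-coding genes, 12330 had no loop in the bin with most of their starts, and for 2378 of these a bin next to it carried a loop, which is 12.4% of all genes.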
